A study of Mus musculus with 7 samples.

Results

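Mitf, Tfeb, Tfec and Tfe3 encode the MiT/TFE transcription factors, and the PU.1 and MITF peaks in and around these 4 genes were examined here. Members were all peaks of 6 ChIP-Seq peak lists whose centre lay within a gene, from its first annotated start to its last annotated end, or within 50 kb of either end on the mm9 mouse genome. Overlapping peaks of the 6 lists were merged into sites. The family held 83 of 102884 sites, with 40 at Mitf, 22 at Tfeb, 11 at Tfec and 10 at Tfe3. By list, the family held 62 of 76243 PU.1 peaks in MPs, 61 of 71941 at 36 h and 68 of 77072 in OCs. For MITF it held 6 of 5413 peaks in MPs, 3 of 3540 at 36 h and 3 of 4443 in OCs.

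Bone marrow of C57BLACK6 mice aged 4 to 6 weeks was grown in CSF1 at 50 ng per ml for 3 days to give the myeloid precursors (MPs). The other cells received, in the same CSF1 medium, 100 ng per ml RANKL, the cytokine that drives osteoclast formation, for 36 h or for 72 h, and those at 72 h are the osteoclasts (OCs). No library came from cells kept as long without RANKL, so RANKL and time in culture cannot be told apart. PU.1 and MITF were each precipitated with 5 µg of antibody from MPs, at 36 h and from OCs, and a control precipitation with non-specific IgG was made from MPs. There was 1 library per condition and thus no replicate, so the spread between cultures is unknown, and intervals and p-values cover counting error between libraries. Gene expression was not part of these files, and the labelled cell types could not be checked against marker genes.

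The MiT/TFE proteins are basic helix-loop-helix leucine zipper factors that bind E-boxes, with the core CANNTG and the preferred forms CACGTG and CATGTG, as homodimers or as heterodimers with each other. MITF is named after the microphthalmia mice, some alleles of which lack functional osteoclasts and have dense bones. Mitf has several promoters that give isoforms with different first exons, of which the A form begins at the most 5′ start and the melanocyte form M begins nearest to the shared exons. TFE3 can partner MITF in osteoclasts, TFEB controls lysosomal genes, and TFEC is found mainly in macrophages and related cells. PU.1 is an Ets factor that binds purine-rich sites with a GGAA core.

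The Peak Score of a list is the number of sequenced fragments (tags) in a peak, scaled to a common library size. A tag was worth between 0.9734 and 3.2047 score units, depending on the library, and the lowest peak of a list held 6 to 10 tags. Peaks were 150 bp wide in the MP and OC lists of both factors, but 190 bp in the PU.1 list of 36 h and 150 to 1387 bp in the MITF list of 36 h. The exception is 1 narrower peak in each PU.1 list. A PU.1 score at 36 h thus counts a wider stretch, and MITF scores at 36 h are given as values without a test. A site without a peak in a list is a site that did not pass the peak caller, whose settings are not given in the sources used here.

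A MITF peak in at least 1 list was found at 7 family sites, and all 7 also had a PU.1 peak at all 3 times. The same share over all sites with a MITF peak is not given here, so this count is not read as particular to the family. The sequences of 6 of the 7 sites are shown because they are places where the factor was found at the genes of its own family. Each line gives the PU.1 peak of the MP list with both ends included, on the + strand of mm9, and capitals mark GAGGAA, a PU.1-type site, and CANNTG, the E-box core, on either strand. Other GGAA cores occur in the printed peaks and are not marked, so a peak without a marked GAGGAA does not lack a GGAA core. Sites are named by the distance of the site's centre from the most 5′ start of the gene, along the direction of transcription.
Mitf -9.3 kb, chr6:97747653-97747803: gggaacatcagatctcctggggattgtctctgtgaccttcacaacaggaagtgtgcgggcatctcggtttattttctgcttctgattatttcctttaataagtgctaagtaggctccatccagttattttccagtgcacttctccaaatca
Mitf +22.2 kb, chr6:97779190-97779340: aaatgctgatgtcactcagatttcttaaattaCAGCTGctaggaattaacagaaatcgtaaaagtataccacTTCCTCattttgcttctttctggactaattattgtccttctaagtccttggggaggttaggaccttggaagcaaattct
Mitf +50.8 kb, chr6:97807813-97807963: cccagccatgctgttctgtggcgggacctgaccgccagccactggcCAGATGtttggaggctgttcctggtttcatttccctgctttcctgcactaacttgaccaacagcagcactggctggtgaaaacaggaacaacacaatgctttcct
Mitf +188.9 kb, chr6:97945886-97946036: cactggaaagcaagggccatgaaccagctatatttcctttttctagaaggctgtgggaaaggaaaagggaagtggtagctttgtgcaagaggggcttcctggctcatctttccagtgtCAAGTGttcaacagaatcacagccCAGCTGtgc
Tfeb +17.4 kb, chr17:47891303-47891453: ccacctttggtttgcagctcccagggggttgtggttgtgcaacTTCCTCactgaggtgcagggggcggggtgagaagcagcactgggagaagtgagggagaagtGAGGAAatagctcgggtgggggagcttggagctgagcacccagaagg
Tfec start, chr6:16848390-16848540: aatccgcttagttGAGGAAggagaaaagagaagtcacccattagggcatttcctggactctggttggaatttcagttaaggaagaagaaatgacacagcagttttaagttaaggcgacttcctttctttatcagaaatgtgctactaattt

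Within 100 bp of the site centre, GAGGAA occurred at 4 of the 7 sites with a MITF peak and CANNTG at 5 of 7. The share over all 7642 sites with a MITF peak on the assembled chromosomes was 67.13% for GAGGAA and 62.97% for CANNTG. None of the 7 sites held CACGTG, which was found at 2.97% of all sites with a MITF peak. CATGTG was found at 1 of the 7, the -9.3 kb site of Mitf, where it lay 72.5 bp from the site centre and outside the printed peak, and at 14.58% of all sites with a MITF peak. The Tfec start and the Tfeb +17.4 kb site, both next to an annotated start, had no CANNTG within this window. Over all 83 family sites, GAGGAA was present at 49 (59.04%) against 56.98% of all 102744 sites on the assembled chromosomes, and CANNTG at 55 (66.27%) against 63.06%. CANNTG includes both CACGTG and CATGTG, and occurred at 33 of the 40 Mitf sites but at 4 of the 11 Tfec sites.

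Mitf lies on the + strand at chr6:97757052-97971352 and had 27 PU.1 peaks in MPs, 30 at 36 h and 29 in OCs. Its number of PU.1 peaks was higher than that of 98.81%, 99.42% and 99.08% of the 22367 protein-coding genes at the respective times, with a median of 6 peaks per gene in each list. The Mitf window is 314.3 kb long, and per 100 kb its PU.1 peaks were denser than at 77.74%, 84.3% and 79.92% of genes. At least 1 PU.1 peak within the same distance was found for 83.8%, 83.3% and 83.8% of protein-coding genes, and for 81.2% of genes at all 3 times and 86% at any time, so the presence of PU.1 at all 4 family genes is shared with most genes. No protein-coding gene other than Mitf had the start nearest to any of the 40 Mitf sites. No family PU.1 or MITF peak overlapped any of the 349 peaks of the IgG list, and such overlap was rare everywhere. It was found for 4 of 76243, 4 of 71941 and 4 of 77072 PU.1 peaks in MPs, at 36 h and in OCs. For MITF it was found for 1 of 5413, 7 of 3540 and 0 of 4443 peaks.

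The PU.1 sites of Mitf were concentrated in its long first intron. Of the 40 sites, 6 lay upstream, 34 lay within the gene and none lay in the 50 kb past its end. Introns were numbered on the longest protein-coding transcript, and 26 sites fell in intron 1. By start, 25 sites lay in the 122.7 kb between the most 5′ start and the next annotated start, or 2.037 sites per 10 kb, compared with 1.2 per 10 kb in the 50 kb upstream. The 50.9 kb between the fourth start and the most 3′ start, that of the M form, had 6 sites, or 1.179 per 10 kb.

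**Figure D1:**
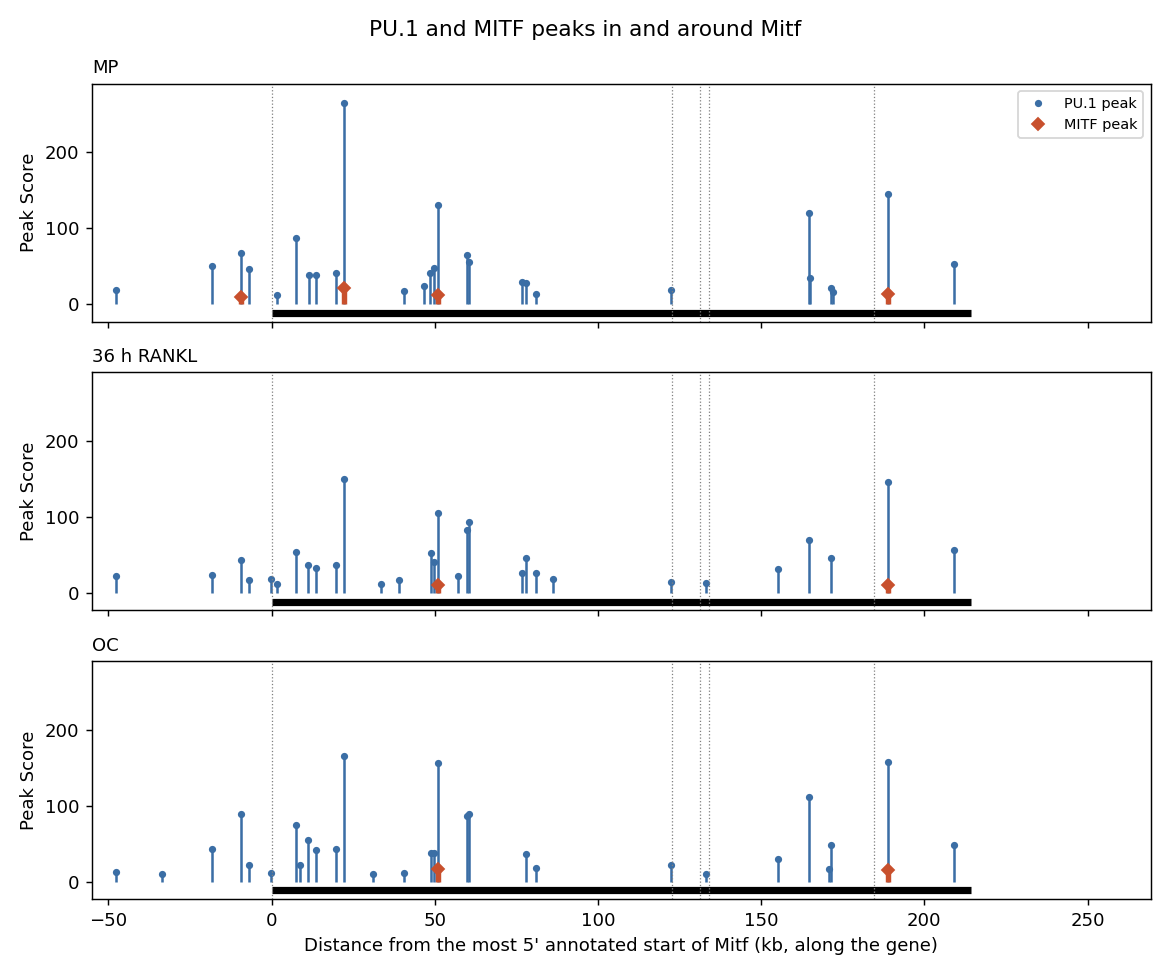
Peak Score (vertical axis) of PU.1 peaks (blue) and MITF peaks (orange) against the distance in kb from the most 5′ start of Mitf, in MPs, at 36 h of RANKL and in OCs. The black bar is the gene and dotted lines mark its 5 groups of annotated starts. PU.1 peaks crowd the first intron, and the MITF peaks at +50.8 kb and +188.9 kb are present in all 3 panels.

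Transcripts of Mitf begin at 5 groups of starts, and PU.1 peaks near them were low or absent. At the most 5′ start, a PU.1 peak centred 147 bp upstream had a score of 17.7 at 36 h and 11.7 in OCs and was not listed in MPs, where the nearest PU.1 peak lay 1764 bp away with a score of 11.9. At the second group of starts, +122.7 kb, the PU.1 score was 18.8 in MPs, 14.8 at 36 h and 22.0 in OCs. At the fourth, +133.9 kb, it was 13.3 at 36 h and 10.3 in OCs with no peak in MPs. No PU.1 peak lay within 1 kb of the third start or of the M start in any list. These scores are below the median of the PU.1 lists, 23.5 to 23.9. No MITF peak lay within 1 kb of any Mitf start in any list.

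The highest PU.1 site of the family was in intron 1 of Mitf at +22.2 kb. Its PU.1 score was 264.4 in MPs, 149.3 at 36 h and 165.9 in OCs, and in MPs it was higher than 99.58% of all PU.1 peaks. It was thus highest in MPs. MITF was listed at this site in MPs only, with a score of 20.8 from 20 tags, the highest MITF peak at Mitf. In the lists of 36 h and OCs the nearest MITF peak was that at +50.8 kb, 28631 and 28639 bp away.

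MITF was present at all 3 times at 2 sites, both within Mitf introns. Both rest on low MITF scores at 36 h. At +50.8 kb in intron 1, the MITF score was 11.4 in MPs, 9.7 at 36 h and 16.0 in OCs, from 11, 10 and 14 tags. The score of 9.7 was the lowest score of the 36 h list, and the 36 h score of 10.7 at +188.9 kb was higher than 16.98% of that list. PU.1 scored 129.6, 104.9 and 155.7 at +50.8 kb. At +188.9 kb in intron 2, 4153 bp past the nearest start of the M group, the MITF score was 12.5, 10.7 and 14.8, from 12, 11 and 13 tags, and PU.1 scored 145.0, 146.3 and 157.1. At both sites the scores of MITF and PU.1 were highest in OCs, yet MITF tags did not differ detectably between MPs and OCs at this depth. The log2 fold change of MITF from MPs to OCs was 0.59 at +50.8 kb (95% interval -0.66 to 1.87, exact binomial p = 0.3228) and 0.36 at +188.9 kb (-0.89 to 1.62, exact binomial p = 0.5536), with an adjusted p of 1 for both. Among all 7692 sites with a MITF peak, 26.07% had one at all 3 times.

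The fourth MITF site of Mitf lay upstream, at -9.3 kb. MITF was listed in MPs only, with a score of 9.3 from 9 tags, the lowest score of that list. PU.1 scored 66.5 in MPs, 42.9 at 36 h and 89.6 in OCs. Other high PU.1 sites of Mitf had no MITF peak at any time, and the highest of them was in intron 2 at +164.6 kb, with 119.4 in MPs, 69.5 at 36 h and 111.6 in OCs.

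Tfec lies on the - strand at chr6:16783381-16848441, and it was the only gene of the family in which the highest PU.1 site was at the most 5′ start. The site was centred 32 bp upstream of the start, and its PU.1 score was 170.6 in MPs, 141.9 at 36 h and 124.8 in OCs. MITF was listed there with 12.5 in MPs and 36.0 at 36 h, and not in OCs, where the nearest MITF peak was 67395 bp away. The MITF peak at 36 h was 202 bp wide and held 37 tags, against 12 tags in the 150-bp peak of MPs, and it was the highest MITF score of the family. The median MITF score was 23.4 in the list of 36 h and 12.5 and 11.4 in the lists of MPs and OCs, so a high score at 36 h is also found elsewhere in that list. Tfec had 10 PU.1 peaks in MPs, 7 at 36 h and 9 in OCs, more than 69.3%, 52.74% and 62.7% of genes. Per 100 kb its PU.1 peaks were denser than at 61.3%, 46.99% and 54.6% of genes.

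The higher of the other PU.1 sites of Tfec lay in its intron 1. At +6.4 kb the PU.1 score was 116.0, 100.5 and 99.9 over the 3 times. At +1.9 kb it was 44.4, 53.2 and 72.0, and at +14.3 kb it was 46.1, 47.3 and 74.9. The last 2 sites were thus highest in OCs, while the start was highest in MPs. The peak lists name the nearest RefSeq gene of each peak, and they assign to Tfec several peaks outside the 50 kb limit. For PU.1 these were 3 in MPs, 3 at 36 h and 5 in OCs. The highest of them in each list lay at -67.4 kb. PU.1 scored 223.5, 165.6 and 210.0 at this site, and MITF scored 19.7, 10.7 and 20.6, so MITF was listed at all 3 times. It is no member of the 83 sites.

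Tfeb lies on the + strand at chr17:47873979-47929368, and its PU.1 peaks numbered 17 in MPs, 15 at 36 h and 20 in OCs, more than at 92.71%, 90.14% and 95.74% of genes and denser per 100 kb than at 88.74%, 84.89% and 93.31%. Its highest site, at -21.7 kb, had a PU.1 score of 83.6 in MPs, 106.4 at 36 h and 113.1 in OCs. MITF was listed there in OCs only, with 9.1 from 8 tags, the lowest score of that list. The nearest protein-coding start was that of Pgc, the gene of the digestive enzyme progastricsin, and 6 of the 22 sites were nearest to a start of another gene.

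Within Tfeb the highest PU.1 site was at an internal start. At +17.4 kb, 107 bp past the start of a Tfeb transcript, PU.1 scored 87.0, 78.3 and 95.4, and MITF was listed in MPs only, with 11.4 from 11 tags. At the most 5′ start the PU.1 score was 15.4 in MPs and 19.2 at 36 h, with no peak in OCs, where a peak of 14.7 lay 272 bp past the start of another transcript of this group. At 3 other internal starts a PU.1 site lay within 1 kb. The site near +32.2 kb scored 64.8, 50.3 and 45.5, the site near +45.8 kb scored 37.5, 44.3 and 38.2, and the site near +26.1 kb was listed in OCs only, with 11.7. In OCs a peak of 17.6 also lay 1000 bp from the start at +22.1 kb. The internal start at +17.3 kb thus had the highest PU.1 score of all Tfeb starts in each list.

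Tfe3 lies on the + strand at chrX:7339686-7352328 and had no MITF peak within 50 kb in any list. The nearest MITF peaks were 95282 to 101968 bp from its starts. It had 8 PU.1 peaks in MPs, 9 at 36 h and 10 in OCs, more than 58.22%, 65.05% and 68.08% of genes and denser per 100 kb than at 68.74%, 76.11% and 78.21%. The site at the most 5′ starts scored 20.5, 28.1 and 25.0, and the site at the second group of starts, +1.7 kb in intron 1, scored 42.6, 59.1 and 57.3. At the third group of starts, +6.9 kb, a peak was listed in OCs only, with 11.7. The highest PU.1 site was at +29.0 kb, past the end of Tfe3 and nearest to a start of Gripap1, with 114.3 in MPs, 78.3 at 36 h and 113.1 in OCs. Among the 10 sites, 5 were nearest to a start of another gene.

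**Figure D2:**
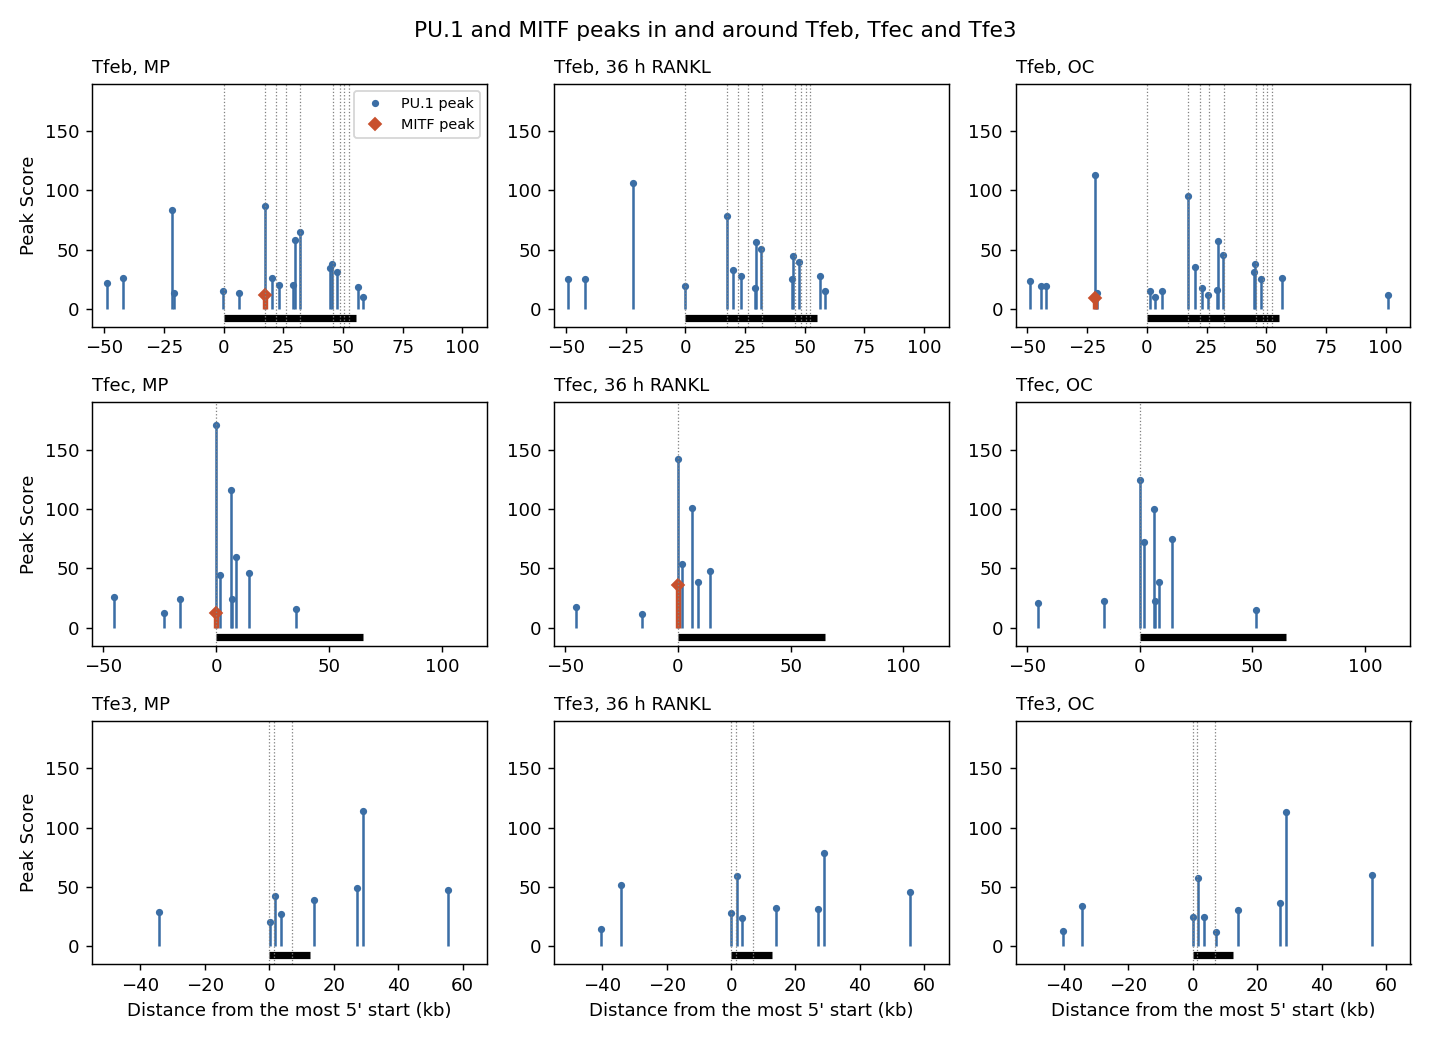
Peak Score (vertical axis) of PU.1 peaks (blue) and MITF peaks (orange) against the distance in kb from the most 5′ start of Tfeb, Tfec and Tfe3 (rows) in MPs, at 36 h and in OCs (columns). The black bar is the gene and dotted lines are annotated starts. The highest PU.1 peak of Tfec sits at the start in each list, and no MITF peak appears at Tfe3.

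A PU.1 peak within 1 kb of a start was listed for all 4 genes at each time, as it was for 35.3% of protein-coding genes in MPs, 37.14% at 36 h and 37.87% in OCs. Any annotated start counted, and the groups of starts numbered 5 at Mitf, 9 at Tfeb, 1 at Tfec and 3 at Tfe3. The shares of all genes were not matched for the number of starts. In MPs Mitf had such a peak only at its second group of starts. A MITF peak so close to a start was rarer, at 2.387%, 1.435% and 1.846% of genes. In the family it was found at Tfeb and Tfec in MPs, at Tfec at 36 h and at none in OCs. Within 50 kb, 32.1% of genes had a MITF peak in MPs, 24% at 36 h and 28.8% in OCs. At any time 40.2% of genes had one. Mitf had such a peak at all 3 times, as did 17.8% of genes, a share not matched for window length. The Mitf window is 314.3 kb long. Per 100 kb its MITF peaks were denser than at 91.12% of genes in MPs, 80.06% at 36 h and 75.92% in OCs. Tfeb had 1 in MPs and in OCs, Tfec in MPs and at 36 h, and Tfe3 at no time.

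MITF sites of the family coincided with high PU.1 sites, at shares near those over all peaks, so this is not particular to the family. In MPs 6 of 6, at 36 h 3 of 3 and in OCs 3 of 3 MITF peaks overlapped PU.1 in the same cells, and over all MITF peaks the shares were 97.91%, 93.81% and 93.29%. A PU.1 score of 100 was reached in at least 1 list at 8 of the 83 family sites, and 5 of these 8 had a MITF peak. In MPs 4 of the 7 family PU.1 peaks that reached 100 overlapped a MITF peak, against 55.62% of all such PU.1 peaks. At 36 h the numbers were 3 of 6 against 44.67%, and in OCs 3 of 7 against 45.62%. Of the PU.1 peaks under a score of 50, none of 45, 42 and 49 in the family overlapped a MITF peak, and of all such peaks 0.2379%, 0.2211% and 0.2561% did. The 3 sites that reached 100 without MITF were Mitf +164.6 kb, Tfec +6.4 kb and Tfe3 +29.0 kb.

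**Figure D3:**
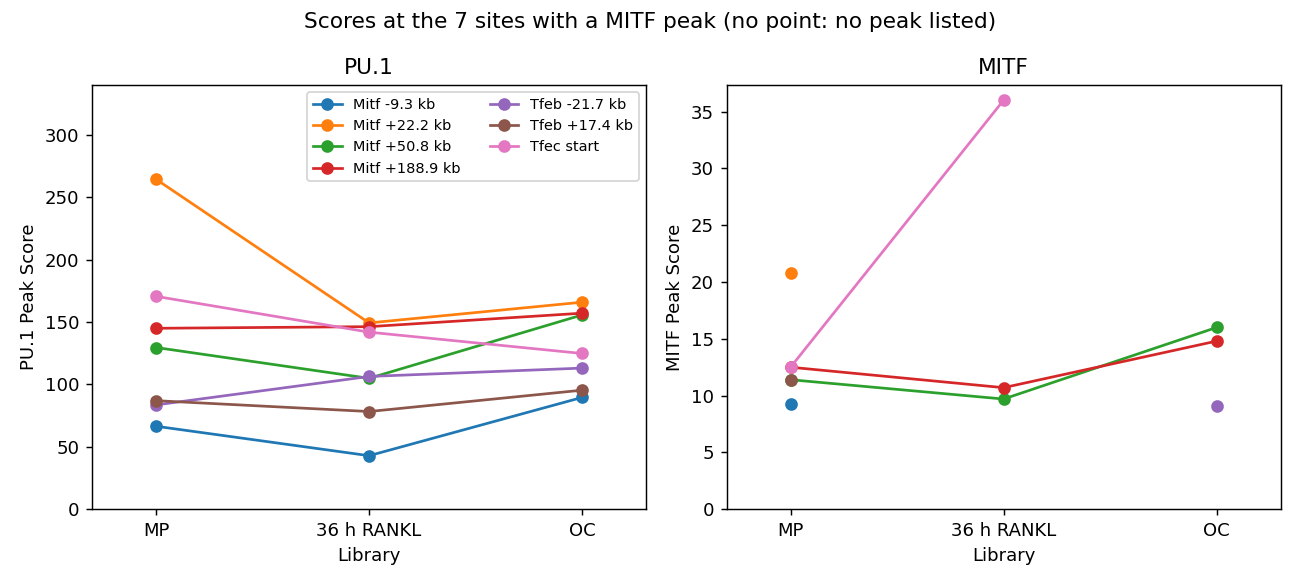
Peak Score of PU.1 (left) and of MITF (right) at the 7 family sites with a MITF peak, in MPs, at 36 h of RANKL and in OCs, with 1 line per site and no point where no peak was listed. PU.1 was listed at every time, while MITF was listed at every time only at Mitf +50.8 kb and Mitf +188.9 kb, and the point at 36.0 for the Tfec start comes from a 202-bp peak.

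The share of family sites with a PU.1 peak at all 3 times was near that of all sites with a PU.1 peak. A PU.1 peak was listed at all 3 times at 47 of the 83 sites (56.63%), with 19 at Mitf, 13 at Tfeb, 7 at Tfec and 8 at Tfe3, against 50.52% of all sites with a PU.1 peak. A peak in MPs only was found at 7 sites (8.434%), at 36 h only at 4 (4.819%), and in OCs only at 11 (13.25%). Over all sites with a PU.1 peak these shares were 11.13%, 9.029% and 10.32%. A peak was listed in MPs and at 36 h at 4 sites (4.819%), at 36 h and in OCs at 6 (7.229%), and in MPs and OCs at 4 (4.819%). Over all sites with a PU.1 peak these shares were 4.556%, 6.172% and 8.272%. The sites listed in OCs only had scores of 10.3 to 22.0, with a median of 11.7, and the lowest score of the OC list is 10.3.

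Of the 36 sites with PU.1 in some lists only, 11 reached at least 2 times the lowest score of the lists that lacked them, with 10 at Mitf and 1 at Tfec. The same count over all sites is not given here. For 6 of the 11, a PU.1 peak of a list that lacked the site was within 500 bp. At Mitf +11.2 kb the score was 37.0 at 36 h and 54.3 in OCs with no peak in MPs, and the MP list had a peak of 37.5 at a distance of 317 bp, at +11.5 kb. At Mitf +48.9 kb the score was 51.7 at 36 h and 38.2 in OCs, and the MP list had a peak of 40.9 at +48.6 kb, 293 bp away. In both places the listed peak lay at a different position in the MP list than in the lists of 36 h and OCs. The MP peaks at +11.5 kb and +48.6 kb are themselves among the 11 sites, so each of these places was counted as a pair of sites. Mitf +165.0 kb, with 34.1 in MPs only, was 436 bp from the +164.6 kb peak at 36 h, and Tfec +6.8 kb, with 23.9 in MPs and 22.0 in OCs, was 451 bp from the +6.4 kb peak at 36 h.

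The other 5 of the 11 sites, all at Mitf, had no PU.1 peak within 1 kb in the lists that lacked them. Mitf +155.0 kb in intron 2 was listed with 31.0 at 36 h and 29.4 in OCs, and in MPs the nearest PU.1 peak was 9550 bp away. It was the site of this kind with the highest score. Mitf +76.8 kb was listed with 29.0 in MPs and 26.6 at 36 h but not in OCs. Mitf +46.6 kb was listed in MPs only (23.9), Mitf +57.0 kb at 36 h only (22.2) and Mitf +8.8 kb in OCs only (22.0).

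At sites with a PU.1 peak in both lists of a comparison, no family site was called changed. Tags were compared by an exact binomial test against the median ratio over all matched peaks, with Benjamini-Hochberg adjustment over all of them, and a site was called at an adjusted p under 0.05 and a 2-fold change. From MPs to 36 h, 0 of 51 family sites were called, against 1.05% of all 56335 matched peaks. From 36 h to OCs, 0 of 53 were called, against 0.0707% of 58008. From MPs to OCs, 0 of 51 were called, against 0.156% of 60099. For MITF from MPs to OCs, 0 of 2 family sites and 0% of 2844 matched peaks were called. At an unadjusted exact binomial p under 0.05 there were 7, 3, 7 and 0 family sites in these comparisons, and 10.9%, 6.45%, 7.84% and 3.23% of all matched peaks. The 3 PU.1 comparisons share libraries.

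The median log2 change over the family sites was 0.06 from MPs to 36 h, -0.08 from 36 h to OCs and 0.01 from MPs to OCs, beside 0.00 for all matched peaks. From MPs to OCs 26 of 51 sites were higher and 25 lower. The interval of the change lay within 2-fold either way at 13 of the 51 sites and was wider at the others. At 38 of the 51 sites a 2-fold change was thus within the interval.

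The site with the smallest adjusted p was the highest PU.1 site, Mitf +22.2 kb. Its PU.1 tags went from 155 in MPs to 101 at 36 h, a log2 fold change of -0.70 (95% interval -1.08 to -0.33, adjusted p = 0.01869 by the exact binomial test), which is less than 2-fold. From MPs to OCs the log2 fold change was -0.65 (-1.01 to -0.29, exact binomial test, adjusted p = 0.07834). From 36 h to OCs it was 0.05 (-0.35 to 0.45, exact binomial test, adjusted p = 1). Both comparisons with MPs use the same MP library, in which this site has the highest score of the family, the value by which it was named.

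Changes past 2-fold were found at 3 sites from MPs to 36 h and at 2 from MPs to OCs, all at Mitf, and none passed the adjusted threshold. Mitf -7.0 kb went from a PU.1 score of 46.1 to 16.3 at 36 h and 22.0 in OCs, with log2 fold changes of -1.38 (-2.54 to -0.32) and -1.04 (-2.06 to -0.08). Mitf +171.5 kb went from 20.5 to 45.8 and 48.5, with log2 fold changes of 1.29 (0.28 to 2.38) and 1.27 (0.28 to 2.36). Both comparisons of a site use the same MP library, so their values are not independent of each other. Their adjusted p was 0.1609 and 0.2017 at 36 h, and 0.5363 and 0.3201 in OCs, by the exact binomial test. The third, Mitf +81.1 kb, had 13.6 in MPs and 26.6 at 36 h (log2 fold change 1.09, -0.19 to 2.50). Past 2-fold were 7.43% of all matched peaks from MPs to 36 h and 5.37% from MPs to OCs. From 36 h to OCs no family site was past 2-fold, against 4.62% of all, and neither of the 2 MITF sites was from MPs to OCs, against 3.87%.

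**Figure D4:**
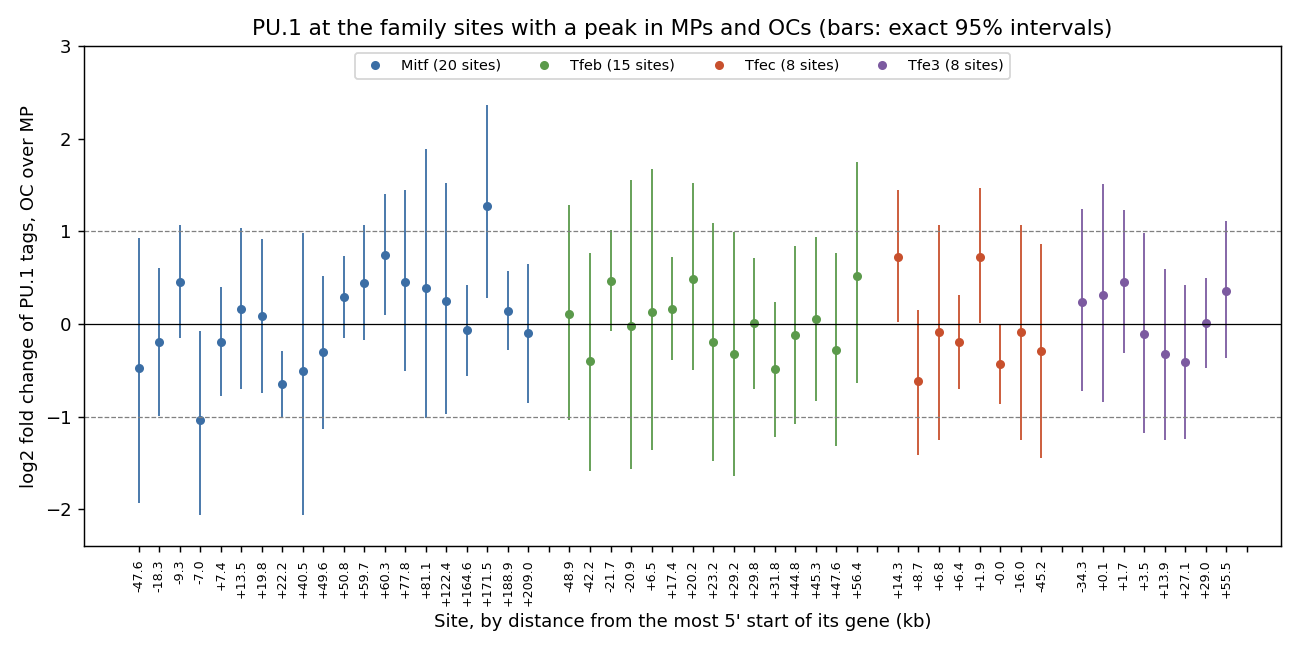
Log2 fold change of PU.1 tags from MPs to OCs, relative to the median of all matched peaks, at the 51 family sites with a PU.1 peak in both lists, ordered by gene and by distance in kb from the most 5′ start. Points are single libraries compared, bars are exact 95% intervals and dashed lines mark 2-fold. Mitf -7.0 kb and Mitf +171.5 kb are the points past 2-fold, and 38 of the 51 intervals reach a 2-fold change.

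At the other PU.1 sites with MITF the change between MPs and OCs did not pass the threshold. At the Tfec start the log2 fold change was -0.43 (-0.86 to 0.00, adjusted p = 0.622), at Tfeb -21.7 kb 0.46 (-0.08 to 1.01, adjusted p = 0.7524), and at Tfeb +17.4 kb 0.16 (-0.39 to 0.72, adjusted p = 1), all by the exact binomial test. At Mitf +50.8 kb it was 0.29 (-0.15 to 0.73) and at Mitf +188.9 kb 0.14 (-0.28 to 0.57). At Mitf -9.3 kb it was 0.45 (-0.15 to 1.07). The intervals of Tfeb -21.7 kb and Mitf -9.3 kb reached past 2-fold, and those of the other 4 sites lay within it.

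Genes that act on the MiT/TFE proteins, or are bound by them, also had PU.1 peaks nearby. Of 16 regulators, which control the phosphorylation or location of these factors, all 16 had a PU.1 peak within 50 kb in each list, and a MITF peak was listed for 7 in MPs, 4 at 36 h and 7 in OCs. Over all protein-coding genes the shares were 83.8%, 83.3% and 83.8% for PU.1 and 32.1%, 24% and 28.8% for MITF, so the count at 36 h is near the share of all genes. The regulators had a median of 10.5, 10 and 11 PU.1 peaks, against 6 for all genes in each list. The shares of all genes were not matched for this or for gene length. MITF was listed at all 3 times, as for 17.8% of all genes, at 4 regulators. These were Fnip2, a partner of folliculin, Rptor, the Raptor subunit of mTORC1, and the kinase genes Mapk14 and Gsk3b. Rptor had up to 55 PU.1 peaks and its highest MITF score was 28.0 in MPs, 55.5 at 36 h and 20.6 in OCs. Flcn, which encodes folliculin, and Mtor had no MITF peak in any list.

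Of 7 genes known as MITF targets in osteoclasts, all 7 had a PU.1 peak in each list, and a MITF peak was listed for 3 in MPs, 4 at 36 h and 4 in OCs, beside 32.1%, 24% and 28.8% of all genes (PU.1: 83.8%, 83.3% and 83.8%). Acp5, which encodes the phosphatase TRAP, Ctsk, which encodes the collagen-degrading protease cathepsin K, and Atp6v0d2, a subunit of the proton pump, had MITF at all 3 times, as did 17.8% of all genes. At Ctsk the highest MITF score was 35.3, 54.5 and 30.8. Clcn7 and Ostm1, which form the lysosomal chloride transporter, had none. Of 7 other E-box factors of the same structural class, all 7 had PU.1 in each list and MITF was listed for 4, 2 and 4, beside the same shares of all genes, so that 2 of 7 at 36 h is near the 24% of all genes. Usf1 and Usf2 had it at all 3 times, Max and Myc in MPs and OCs, and Mlx, Srebf1 and Srebf2 at no time. The median number of PU.1 peaks was 11, 12 and 13 for the targets and 9, 8 and 9 for the E-box factors. For all genes it was 6 in each list, and the shares of all genes were not matched for this.

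The genes whose summed scores were most like those of a family member were found from the Euclidean distance between log2(summed score + 1) over the 6 lists. For Mitf, with summed PU.1 scores of 1514.8 in MPs, 1359.9 at 36 h and 1518.4 in OCs, they were Cap1 (distance 0.27) and Dscam (0.44). For Tfeb, with 581.7, 591.1 and 638.7, they were Llph (0.15) and Fbxl19 (0.26). For Tfec, with 537.5, 410.8 and 489.1, they were Gm6613 (0.27) and Klf7 (0.34), and for Tfe3, with 370.2, 365.0 and 406.8, they were Polr1d (0.04) and Ifnk (0.07). The order of the 4 genes by summed PU.1 score was the same in each list, and with 1 library per time the spread of these sums is unknown.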

How the data were processed

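PU.1, MITF and control IgG ChIP-Seq libraries of mouse MPs, cells at 36 h of RANKL and OCs were used, 7 in all. The authors mapped reads with Bowtie2 to mm9 and called peaks with HOMER, and the submitters' processing notes also name CASAVA 1.8. The deposited Peak Score is a score, the tags of a peak after scaling to a common library size by HOMER, and the settings are not given in the sources used here. Scores were whole multiples of the value of 1 tag to within 0.0511, and dividing gave tags. With an assumed scale of 10000000 tags, the implied libraries held 3120000 to 10270000 tags. No reads were used, no peaks were called again and no input was subtracted. Groups came from the labels.

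Sites were peaks of the 6 PU.1 and MITF lists merged where they overlapped by at least 1 bp. Genes and starts came from GENCODE vM1 on NCBIM37, the same build as mm9, which names Tfeb, Tfec and Tfe3 as Tcfeb, Tcfec and Tcfe3. All but 340 of the 239001 peaks lay on the chromosomes used. The sequence of the Tfeb -21.7 kb site is not reported here. Neighbouring starts at most 1 kb apart formed a group. Matched peaks were compared by an exact two-sided binomial test of tags against the median ratio, with exact 95% intervals, for PU.1 at all times and for MITF between MPs and OCs. PU.1 peaks at 36 h are 190 bp and the others 150 bp wide, and the median ratio takes up the average effect of the width. The test was tried on simulated tags and the matching was checked with bedtools. The alternatives were other windows, a lower limit on the score at 2 times a list's lowest, centres within 100 bp, a reciprocal overlap of 50%, removal of peaks over an IgG peak, the ratio from library sizes, adjusted p alone, and unmatched peaks tested with the lowest tag count.

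The genes and lists were chosen with earlier results of these data known. Sites named were, per gene and factor, the highest site, those within 1 kb of a start, those with a MITF peak, those called changed, and those missing from a PU.1 list at 2 times its lowest score. Sites named for an unadjusted change, and other PU.1 sites of Tfec intron 1, were picked after their values were seen. Tools were scipy 1.17.1, pandas 2.3.3, numpy 2.4.6, matplotlib 3.10.9 and samtools 1.23.1 under Python 3.11.15.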

Additional observations from a re-analysis of the deposited data

Results flagged for a closer look

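The control IgG list held 2 peaks within Mitf. They are outside the comparisons above, in which the control list was used only to look for overlapping peaks. The peak at chr6:97799875-97800049, in intron 1, had a score of 22.4 from 7 tags, the lowest score of the IgG list. The peak at chr6:97967915-97968089, in exon 9 of the longest transcript, had a score of 28.8 from 9 tags. No PU.1 or MITF peak lay within 1 kb of either, and the nearest was a PU.1 peak at 36 h, 1899 bp from the exon 9 peak. At least 1 IgG peak within 50 kb was listed for 344 of 22367 protein-coding genes (1.538%), and 27 genes (0.1207%) had 2 such peaks. Tfeb, Tfec and Tfe3 had none.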

How the results depend on the processing

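No paired analysis was possible because each condition has 1 library. The PU.1 peaks of the 4 genes together (143 to 244, given as 191) and the sites with PU.1 at all 3 times (36 to 47) stayed within 1.5 times, and there were 0 calls with library-size ratios, with centres within 100 bp or with the higher score threshold. Counts per gene did not all do so. At Tfe3 the 8, 9 and 10 PU.1 peaks became 4, 4 and 5 within 10 kb and 14, 17 and 17 within 100 kb, where 1 MITF peak was also listed at each time. The 20 PU.1 peaks of Tfeb in OCs became 10 at 2 times the lowest score. MITF results depend on the score threshold. At 2 times the lowest score of each list, the 12 family MITF peaks fell to 2, those that overlap PU.1 to 2, and sites with MITF at all 3 times from 2 to 0. By adjusted p alone 1 PU.1 site was called, Mitf +22.2 kb from MPs to 36 h. With unmatched peaks tested against the lowest tag count 3 were called, Mitf +11.2 kb in both later lists and Mitf +48.9 kb at 36 h, each with an MP peak within 500 bp, and this setting assumes a count that was not measured. The share of genes with PU.1 at any time, 86%, was 80% over all annotated genes and 76.3% within 10 kb. For MITF it was 40.2%, 33.9% and 19.9%. MITF peaks of 8 to 37 tags limit every MITF comparison.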
